A study of Mus musculus with 12 samples.

Results

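The genes described here are 32 named genes of glycolysis and of the hypoxia response: glucose transporters, glycolytic enzymes, the lactate exporter, the oxygen-sensing proteins and a set of genes that low oxygen induces. A chromatin accessibility peak was taken as a member when the nearest protein-coding gene span of the RefSeq annotation (mouse build mm10, GRCm38.p6) within 50 kb of its midpoint was that of one of these genes. By this rule 163 of 68689 peaks were members, at 31 of the 32 genes. Eno1, which encodes the main enolase, had no peak. The rule itself uses gene names and positions only.

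The libraries were made by Omni-ATAC-seq. In this assay the transposase Tn5 cuts open chromatin and tags the ends, so that the count of reads in a peak is a measure of accessibility. Germinal center B cells were taken from the spleens of C57BL/6 mice aged 8 to 10 weeks. The genotypes were Pbrm1+/+, labelled WT, and Pbrm1-/-, labelled HOMO. Pbrm1 encodes a subunit found in the PBAF form of the SWI/SNF chromatin remodelling complex. From each genotype there were libraries labelled CB and CC, letters that the labels do not spell out, while the title of the series speaks of centrocytes. With 3 libraries in each of WT CB, HOMO CB, WT CC and HOMO CC there were 12 in all. All groups share the strain, tissue and age range. The sources used here do not say whether Pbrm1 was deleted in the whole animal or in B cells alone. The names of all count columns, WT and HOMO alike, begin with Pbrm1AID, which the labels do not explain. Libraries of a group are numbered, but nothing says that each came from its own mouse. The p-values therefore rest on the spread among libraries, which may be technical in part. Because each library pools many cells, a change in the share of cells that have a site open and a change in how open it is per cell cannot be told apart.

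Glycolysis splits glucose into pyruvate in the cytosol, and pyruvate is then either oxidised in mitochondria or reduced to lactate and exported. When oxygen is low, the prolyl hydroxylases of the Egln family no longer mark Hif1a for destruction by the Vhl ubiquitin ligase. Hif1a, paired with Arnt, then binds DNA at sites with the core ACGTG or GCGTG and raises transcription of glucose transporters, most glycolytic enzymes and regulators such as Vegfa and Bnip3. Germinal center B cells divide fast, and the light zone of the germinal center is known as a site of low oxygen.

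Promoters of these genes are shown first, because the accessibility results below turn on sites at gene starts. The sequences are the 250 bases before the annotated start, from RefSeq (GRCm38.p6), written 5′ to 3′ on the strand of the gene. Capitals mark each match to ACGTG on either strand, so that CACGT is a match on the other strand and CACGTG, the E-box read by Myc and Max, counts on both. Slc2a1, Ldha, Bnip3 and Hif1a were chosen as promoters with a match whose start peak showed no called genotype difference. Pfkm, Pfkfb3 and Eno2 were chosen because the peak at the start shown was called lower in HOMO. All but the Eno2 window lay entirely within a peak, and of the Eno2 window 127 bases did.
Slc2a1 (chr4:119108495-119108744, plus strand): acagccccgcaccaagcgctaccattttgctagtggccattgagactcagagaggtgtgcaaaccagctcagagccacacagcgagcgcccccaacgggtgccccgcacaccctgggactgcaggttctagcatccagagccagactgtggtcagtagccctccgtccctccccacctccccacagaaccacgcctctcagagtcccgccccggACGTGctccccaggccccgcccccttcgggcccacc
Pfkm (chr15:98108221-98108470, plus strand): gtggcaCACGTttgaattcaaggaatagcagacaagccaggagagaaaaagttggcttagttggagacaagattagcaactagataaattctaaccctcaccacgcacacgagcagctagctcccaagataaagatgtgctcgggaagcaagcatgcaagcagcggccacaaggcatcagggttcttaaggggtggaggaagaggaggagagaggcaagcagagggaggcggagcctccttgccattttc
Pfkfb3 (chr2:11553930-11554179, minus strand): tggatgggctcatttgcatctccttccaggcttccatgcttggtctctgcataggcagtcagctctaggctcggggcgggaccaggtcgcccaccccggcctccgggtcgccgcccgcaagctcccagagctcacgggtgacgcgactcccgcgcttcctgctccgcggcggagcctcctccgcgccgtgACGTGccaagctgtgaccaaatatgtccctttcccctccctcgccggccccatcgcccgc
Eno2 (chr6:124769674-124769923, minus strand): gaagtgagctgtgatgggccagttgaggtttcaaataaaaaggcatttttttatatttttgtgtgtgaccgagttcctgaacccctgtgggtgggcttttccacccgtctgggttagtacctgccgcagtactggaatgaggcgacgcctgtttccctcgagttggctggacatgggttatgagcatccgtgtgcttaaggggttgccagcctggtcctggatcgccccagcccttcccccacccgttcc
Ldha (chr7:46845554-46845803, plus strand): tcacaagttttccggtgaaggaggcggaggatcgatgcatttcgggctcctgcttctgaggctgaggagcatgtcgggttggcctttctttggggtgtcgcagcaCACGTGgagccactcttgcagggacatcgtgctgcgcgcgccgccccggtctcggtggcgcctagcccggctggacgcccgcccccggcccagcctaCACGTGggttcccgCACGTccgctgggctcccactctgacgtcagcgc
Bnip3 (chr7:138909507-138909756, minus strand): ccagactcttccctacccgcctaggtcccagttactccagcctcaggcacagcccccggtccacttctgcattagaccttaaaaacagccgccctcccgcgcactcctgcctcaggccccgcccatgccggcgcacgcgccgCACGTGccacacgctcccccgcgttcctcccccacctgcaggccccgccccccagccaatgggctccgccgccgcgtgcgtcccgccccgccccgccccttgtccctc
Hif1a (chr12:73907617-73907866, plus strand): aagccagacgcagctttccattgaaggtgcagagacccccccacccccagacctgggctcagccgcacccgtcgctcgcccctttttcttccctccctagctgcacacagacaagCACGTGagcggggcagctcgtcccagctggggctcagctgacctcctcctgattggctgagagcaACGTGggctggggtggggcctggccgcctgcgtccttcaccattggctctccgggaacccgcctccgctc

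The Ldha window, before the gene of the enzyme that makes lactate, held 5 matches counted over both strands. Hif1a held 3, Bnip3 held 2, and Eno2 held 0. Over all annotated starts of the genes described here, 22 of 49 windows (44.9%) had a match to ACGTG, against 16.6% of 32851 windows of the same length in the whole table. By gene, 18 of the 31 with an entry (58.1%) had a match, against 18.5% of all genes. The whole table holds 27025 genes, more than the 21627 protein-coding spans, while the members are all protein-coding. The list was also named in part for induction by low oxygen, so a surplus of the HIF core is not an independent result. Windows of these genes were also richer in G and C, with a median of 60.4% against 52.4%. GCGTG, counted in the same way, was in 49.0% of their windows and in 28.2% of all windows. Among windows with at least 60% G and C, ACGTG was in 66.7% of the members' and 23.0% of all, while GCGTG was in 51.9% and 53.9%. A match is a description of letters in a window and not a measured site of binding. Slc2a3 has no entry in the promoter table.

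Facts of the whole series that bear on these values are few. Library totals ran from 6431354 reads in peaks (HOMO CC 1) to 45590454 (HOMO CB 3), a 7.09-fold range, and the second lowest was HOMO CB 1 with 7679509. All 12 germinal center B cell marker genes had peaks, and their gene-end peaks summed to 539 to 547 CPM in WT CB, 577 to 588 in HOMO CB, 492 to 501 in WT CC and 524 to 586 in HOMO CC (CPM, the count in a peak relative to the library total of reads in peaks, scaled with TMM factors). Of 7 T cell markers, 4 (Cd3g, Cd8a, Cd28 and Lck) had no peak, and the gene-end peak of the list, at Cd3d, gave 18.3 to 24.3 CPM. Of 8 myeloid markers Lyz2, S100a8 and Mpo had no peak, and the other 5 had 16 peaks. The highest peaks at Adgre1, Itgam and Csf1r had means of 22.6, 12.8 and 8.57 CPM in WT CB. The list's gene-end peak held 2.95 to 5.12 CPM in WT and 0.976 to 1.97 in HOMO. At plasma cell markers WT was again above HOMO, with 258 to 267 against 232 to 240 CPM in CB and 240 to 251 against 224 to 229 CPM in CC. The gene-end values of the myeloid and plasma cell lists did not overlap between the genotypes. Those of the germinal center list did not overlap either, with HOMO above WT in both fractions. At erythroid markers HOMO was below WT in CB, with 90.3 to 91.4 against 94.5 to 97.2 CPM. In CC it was above, with 87.9 to 90.3 against 81.35 to 87.45 CPM. The part of these differences in the results was not tested. Of 119 peaks at light zone genes 8 were higher and 2 lower in WT CC than in WT CB, and of 95 at dark zone genes 1 was higher and 8 were lower. Over all peaks 3.35% were higher and 2.08% lower. The median log2 fold change was negative in both lists, -0.06 at light zone and -0.08 at dark zone genes, against -0.03 over all peaks. Most peaks of the 2 lists thus did not separate CC from CB. At the Pbrm1 start the peak gave means of 31.6 CPM in WT CB against 30.7 CPM in HOMO CB. That peak does not check the genotype labels, since the deleted part of the gene is not given here.

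The 163 peaks lay on 13 chromosomes, with 1 to 19 peaks at a gene and a median of 3. Pfkfb3 had the most, followed by Pfkp with 15 and Hif1a with 12. A peak is called gene-end here when its midpoint lay within 1 kb of either end of the gene span, which held for 42 peaks at 25 genes. For members these are the ends of the member gene. In the shares over all peaks the ends of any protein-coding gene count, so the classes are not drawn quite alike. The other 121 peaks were inside spans or between genes. Because many genes have several annotated starts, 55 peaks at 29 genes lay within 1 kb of an annotated start, 17 of them outside the gene-end class. Hk2, the hexokinase induced by growth signals, had 4 peaks but none at its start, and the nearest was 9188 bp beyond the far end of the gene.

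In WT CB the gene-end peaks had a median of 30.1 CPM, against 24.0 CPM over all gene-end peaks in the table, and the other peaks had a median of 7.43 CPM against 5.81 CPM. The highest level was at the start of Pkm, the pyruvate kinase gene, with a mean of 85.5 CPM in WT CB. The start peaks of Hif1a (82.5 CPM), Pfkfb4 (78.7 CPM) and Pfkl (76.8 CPM) were close below it. At the low end of the start peaks were Egln3, a prolyl hydroxylase, with 5.83 CPM and the outer and inner starts of Pfkm with 8.03 and 6.68 CPM.

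The first question was whether loss of Pbrm1 changed accessibility at these genes in CB. Of the 163 peaks, 17 at 10 genes were lower in HOMO CB and 0 were higher, where called means an adjusted p under 0.05 by edgeR's quasi-likelihood test with Benjamini-Hochberg adjustment over all 68689 peaks. That is 10.4% of the members, beside 4.63% of all peaks called, 3.85% lower and 0.779% higher. In the gene-end class 5 of 42 were lower (11.9%), beside 9.17% of all gene-end peaks. In the other class 12 of 121 were lower (9.92%), beside 2.22% of all other peaks. The median log2 fold change of the members was -0.11 in the gene-end class, as it was over all gene-end peaks, and -0.05 in the other class against 0.05 over all. In 36 member peaks the 3 HOMO libraries all lay below the 3 WT libraries and in 9 all above, beside 13.2% and 10.3% of all peaks.

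In CC the same comparison gave 12 lower peaks at 8 genes and 0 higher. That is 7.36% of the members, beside 2.75% of all peaks called, 2.17% lower and 0.578% higher. Of the gene-end peaks 4 of 42 were lower (9.52%), beside 5.58% of all gene-end peaks, and of the others 8 of 121 (6.61%), beside 1.13%. The median log2 fold change was -0.07 in the gene-end class, the same as over all, and -0.02 in the other class against 0.06. The HOMO libraries lay wholly below WT at 32 peaks and wholly above at 17, beside 11.2% and 9.81% of all peaks.

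A set of 7 peaks at Pfkm, Eno2, Slc2a3 and Mxi1 was called lower in both CB and CC, which is 41.2% of the CB calls and 58.3% of the CC calls. Over all peaks 1.58% were called lower in both, 4.27% of gene-end and 0.757% of other peaks. Counting either comparison, 22 peaks at 12 genes were called, and each of the 22 had a negative log2 fold change in both. Same-numbered CB and CC libraries of a genotype deviated together, so CB and CC are not independent tests of the genotype. At 19 genes with peaks no peak was called in either comparison.

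**Figure D1:**
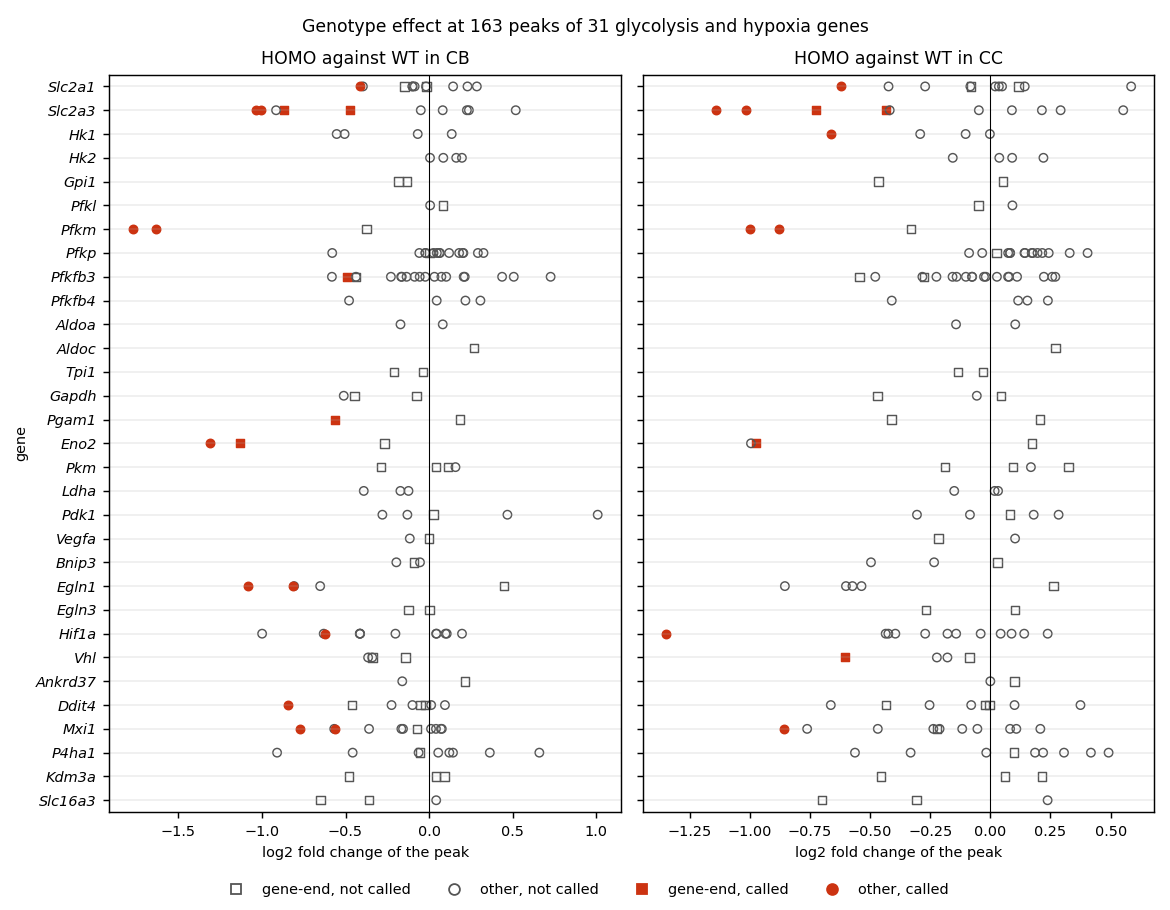
Log2 fold change of each of the 163 peaks, HOMO against WT, in CB (left) and CC (right), with 1 row per gene. Squares are gene-end peaks, circles are other peaks, and filled red symbols have an adjusted p under 0.05 by edgeR. All filled symbols lie left of 0, and the strongest are at Pfkm, with -1.77 and -1.64 in CB.

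Glucose enters through Slc2a1 (Glut1) and Slc2a3 (Glut3), and both transporter genes had called peaks. Slc2a3, whose RefSeq span is chr6:122727809-122802363, had 8 peaks in the span and 2 beyond it. Of these 10 4 were called lower in CB and 4 in CC. The peak at chr6:122801692-122802192, 421 bp inside an end of the span, held 28.9, 25.9 and 26.1 CPM in WT CB against 14.5, 15.4 and 14.4 CPM in HOMO CB. In CC it held 24.5, 25.7 and 21.8 CPM in WT and 18.0, 14.5 and 12.1 CPM in HOMO. All HOMO libraries lay below all WT libraries in both cell fractions. The log2 fold change was -0.87 ± 0.14 (SE, n = 3 against 3; edgeR adjusted p = 0.00184) in CB and -0.72 ± 0.14 (edgeR adjusted p = 0.0108) in CC. Its neighbour at chr6:122801153-122801653 was lower by a smaller amount, with -0.47 in CB (edgeR adjusted p = 0.0187) and -0.43 in CC (edgeR adjusted p = 0.0407).

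Weaker peaks inside the Slc2a3 span were also lower. The peak at chr6:122742222-122742722 fell from a mean of 6.15 to 3.37 CPM in CB and from 7.32 to 3.81 CPM in CC, with log2 fold changes of -1.03 (edgeR adjusted p = 0.0305) and -1.02 (edgeR adjusted p = 0.0388). Another peak, at chr6:122741372-122741872, was called in CB alone (-1.004, edgeR adjusted p = 0.0411), and one at chr6:122764243-122764743 in CC alone (-1.14, edgeR adjusted p = 0.0251). The difference between CB and CC was not called at either. The strongest peak near the gene, 8546 bp beyond the span with a mean of 83.9 CPM in WT CB, had log2 fold changes of -0.05 and 0.09 and was not called. Because the table gives neither strand nor starts for Slc2a3, its peaks are placed by the span alone.

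At Slc2a1 the start peak was among the high ones and was not called, with a mean of 68.9 CPM in WT CB against 68.2 CPM in HOMO CB. A pair of peaks upstream of it was lower. The peak 2850 bp upstream held 41.3, 45.1 and 42.4 CPM in WT CB against 38.1, 28.2 and 31.6 CPM in HOMO CB, which did not overlap. Its log2 fold change was -0.41 ± 0.11 in CB (edgeR adjusted p = 0.0407) and -0.42 in CC, which missed the threshold (edgeR adjusted p = 0.0508). The peak 3611 bp upstream was called in CC alone, with -0.62 (edgeR adjusted p = 0.0260) against -0.40 in CB (edgeR adjusted p = 0.107).

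The hexokinases trap glucose in the cell. At Hk1 the peak 972 bp downstream of an inner annotated start held 13.3, 14.7 and 15.9 CPM in WT CC against 9.32, 9.12 and 9.38 CPM in HOMO CC. The HOMO libraries all lay below WT, and the log2 fold change was -0.66 ± 0.16 (edgeR adjusted p = 0.0292). In CB it was -0.55 (edgeR adjusted p = 0.0509). The peak at that start, with 63.4 CPM in WT CB, had log2 fold changes of -0.07 and 0.00. None of the 4 Hk2 peaks was called.

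Phosphofructokinase makes the committed step, and of its 3 genes 1 had called peaks. Pfkm, the muscle form, had the largest decreases of all members in CB. It has an outer start and inner starts, 1 of which is the one shown above, and the peaks at the inner starts were lower. The peak at chr15:98108186-98108686, centred 35 bp upstream of the inner start shown, held 7.37, 6.07 and 6.60 CPM in WT CB against 1.96, 2.28 and 1.66 CPM in HOMO CB. The WT CC libraries held 6.60, 5.24 and 5.87 CPM against, in HOMO CC, 4.73, 2.98 and 2.62 CPM. Groups did not overlap in either fraction, and HOMO CC 1 was the HOMO library nearest to WT. The log2 fold change was -1.77 ± 0.24 in CB (edgeR adjusted p = 0.000783) and -0.88 ± 0.23 in CC (edgeR adjusted p = 0.0436).

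The adjoining Pfkm peak, 434 bp downstream of another inner start close by, showed the same order. It held 4.68, 4.58 and 4.34 CPM in WT CB against 1.57, 1.66 and 1.21 CPM in HOMO CB, a log2 fold change of -1.64 ± 0.24 (edgeR adjusted p = 0.00134). In CC it held 4.04, 3.61 and 5.40 CPM in WT and 2.07, 2.27 and 2.19 CPM in HOMO, with -1.001 ± 0.24 (edgeR adjusted p = 0.0265). The peak at the outer start, at 8.03 CPM in WT CB, was not called, with -0.37 and -0.33, and its midpoint lies in more than 1 gene span. Pfkl and Pfkp, the liver and platelet forms, had 17 peaks between them and none was called. The Pfkl start peak had log2 fold changes of 0.08 and -0.05. The start peak of Pfkp gave a mean of 54.8 CPM in WT CB and in HOMO CB.

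Pfkfb3 and Pfkfb4 make fructose 2,6-bisphosphate, the activator of phosphofructokinase. The peak over the outer Pfkfb3 start printed above held 41.3, 35.4 and 34.3 CPM in WT CB against 29.3, 24.2 and 26.2 CPM in HOMO CB. All HOMO libraries lay below WT, with a log2 fold change of -0.49 ± 0.11 (edgeR adjusted p = 0.0138), and in CC it was -0.28 (edgeR adjusted p = 0.186). The peak at an inner Pfkfb3 start, with 37.0 CPM in WT CB, had 0.07 and 0.11 and was not called. No Pfkfb4 peak was called between genotypes.

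In the later steps of the pathway most genes had no called peak. These were Aldoa and Aldoc (aldolases), Tpi1 (triosephosphate isomerase), Gapdh and Pkm. The Gapdh start peak gave 58.4 CPM in WT CB against 55.5 CPM in HOMO CB, with log2 fold changes of -0.08 and 0.04, and the Pkm start peak had 0.04 and 0.09. At the Aldoc start the values were 0.27 in both, and the 3 HOMO libraries lay above WT in each fraction, but neither value was called (edgeR adjusted p = 0.158 and 0.181). Tpi1 had -0.04 and -0.03. The exceptions were Eno2 and Pgam1. Gpi1, the isomerase between glucose and fructose phosphates, had -0.13 and 0.05 at its start and was not called.

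Eno2 encodes the enolase best known from neurons. The peak at chr6:124769300-124769800, centred 123 bp downstream of its start, held 15.2, 16.0 and 16.8 CPM in WT CB against 7.73, 7.11 and 7.29 CPM in HOMO CB. In CC it held 18.2, 16.9 and 20.6 CPM in WT and 11.2, 7.97 and 9.75 CPM in HOMO. The groups did not overlap and the spread within each was small next to the gap. The log2 fold change was -1.13 ± 0.15 in CB (edgeR adjusted p = 0.000791) and -0.98 ± 0.15 in CC (edgeR adjusted p = 0.00541). A weaker peak 1165 bp downstream of the start went the same way, from a mean of 6.22 to 2.63 CPM in CB (log2 fold change -1.31, edgeR adjusted p = 0.0138), while in CC its -0.995 missed the threshold (edgeR adjusted p = 0.0656). The peak near the far end of the gene, 573 bp from that end, had -0.27 and 0.17 and was not called.

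Pgam1, a phosphoglycerate mutase, showed a contrast between neighbours. The peak 587 bp downstream of the start held 33.3, 33.1 and 30.1 CPM in WT CB against 21.7, 21.4 and 22.1 CPM in HOMO CB, with no overlap and a log2 fold change of -0.56 ± 0.12 (edgeR adjusted p = 0.00962). In CC it was -0.41 (edgeR adjusted p = 0.0615). The peak 136 bp upstream of the start had positive values that were not called, 0.18 in CB and 0.21 in CC.

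Ldha makes lactate, Slc16a3 (Mct4) exports it and Pdk1 shuts off pyruvate dehydrogenase. None of their peaks was called between genotypes. The Ldha start peak, whose promoter is the richest in ACGTG of those printed, gave 44.8 CPM in WT CB against 41.3 CPM in HOMO CB, with log2 fold changes of -0.12 and 0.02. The Slc16a3 peak 597 bp upstream of its start gave -0.65 (edgeR adjusted p = 0.0695) and -0.70 (edgeR adjusted p = 0.0678), and its groups did not overlap in either fraction. The Pdk1 start peak had 0.03 and 0.08.

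Among the oxygen-sensing genes the start of Hif1a itself was not lower. That peak held 77.1, 79.7 and 90.5 CPM in WT CB against 96.7, 83.4 and 86.0 CPM in HOMO CB, which overlap, with a log2 fold change of 0.10 (edgeR adjusted p = 0.587) and 0.14 in CC (edgeR adjusted p = 0.450). The peak 712 bp downstream of the same start held 26.6, 27.7 and 25.7 CPM in WT CB against 19.1, 17.0 and 16.3 CPM in HOMO CB. Here the groups were apart, with -0.62 (edgeR adjusted p = 0.0125), and in CC the value was -0.40 (edgeR adjusted p = 0.124). A weak peak 5482 bp beyond the gene was lower in CC, from a mean of 7.08 to 3.01 CPM (log2 fold change -1.35 ± 0.33, edgeR adjusted p = 0.0319), while in CB its groups overlapped (-0.999, edgeR adjusted p = 0.0838).

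Egln1 is the main oxygen sensor among the prolyl hydroxylases. Its start peak had 0.45 in CB and 0.26 in CC, neither called, although the HOMO CB libraries, at 30.4, 26.7 and 31.8 CPM, all lay above WT CB, at 23.1, 16.3 and 24.7 CPM. The peak 1165 bp downstream of the start was lower in CB, from a mean of 5.56 to 2.78 CPM (log2 fold change -1.08, edgeR adjusted p = 0.0201). A second peak inside the gene, 26622 bp downstream, was also lower in CB (-0.82, edgeR adjusted p = 0.0314). In CC these gave -0.85 (edgeR adjusted p = 0.0784) and -0.60 (edgeR adjusted p = 0.115). Vhl, which tags Hif1a for destruction, had 1 called peak, 677 bp downstream of its start, with -0.60 in CC (edgeR adjusted p = 0.0440) and -0.34 in CB (edgeR adjusted p = 0.226). No Egln3 peak was called, and its start peak had 0.00 and 0.10.

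Of the hypoxia-induced genes outside glycolysis, Mxi1 and Ddit4 had called peaks. Mxi1 encodes a partner of Max that opposes Myc. Its peak 505 bp downstream of an annotated start held 18.7, 19.8 and 21.6 CPM in WT CB against 13.1, 10.4 and 12.1 CPM in HOMO CB. In CC it held 16.6, 16.7 and 21.5 CPM in WT and 10.7, 7.56 and 12.3 CPM in HOMO. No group overlapped its counterpart, and the log2 fold change was -0.77 ± 0.17 in CB (edgeR adjusted p = 0.0125) and -0.86 ± 0.17 in CC (edgeR adjusted p = 0.0131). The adjoining peak, 66 bp downstream of another annotated start, gave 0.04 and 0.11. A peak 2959 bp downstream of the outermost Mxi1 start was lower in CB (-0.56, edgeR adjusted p = 0.0204).

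Ddit4 encodes an inhibitor of mTORC1 that hypoxia and other stresses induce. A peak 16946 bp beyond the gene held 5.03, 4.58 and 5.24 CPM in WT CB against 2.62, 2.66 and 2.96 CPM in HOMO CB, with no overlap and a log2 fold change of -0.85 ± 0.20 (edgeR adjusted p = 0.0180). In CC it was -0.66 (edgeR adjusted p = 0.0605). No genotype difference was called at Vegfa (the vascular growth factor), Bnip3 (mitophagy), Ankrd37, P4ha1 (collagen prolyl hydroxylase) or Kdm3a (a histone demethylase). Their start peaks ranged from -0.09 at Bnip3 to 0.22 at Ankrd37 in CB, and from -0.22 at Vegfa to 0.10 at Ankrd37 in CC. The largest positive value among members in CB, 1.01 at a weak peak 21239 bp beyond Pdk1, was not called (edgeR adjusted p = 0.145).

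**Figure D2:**
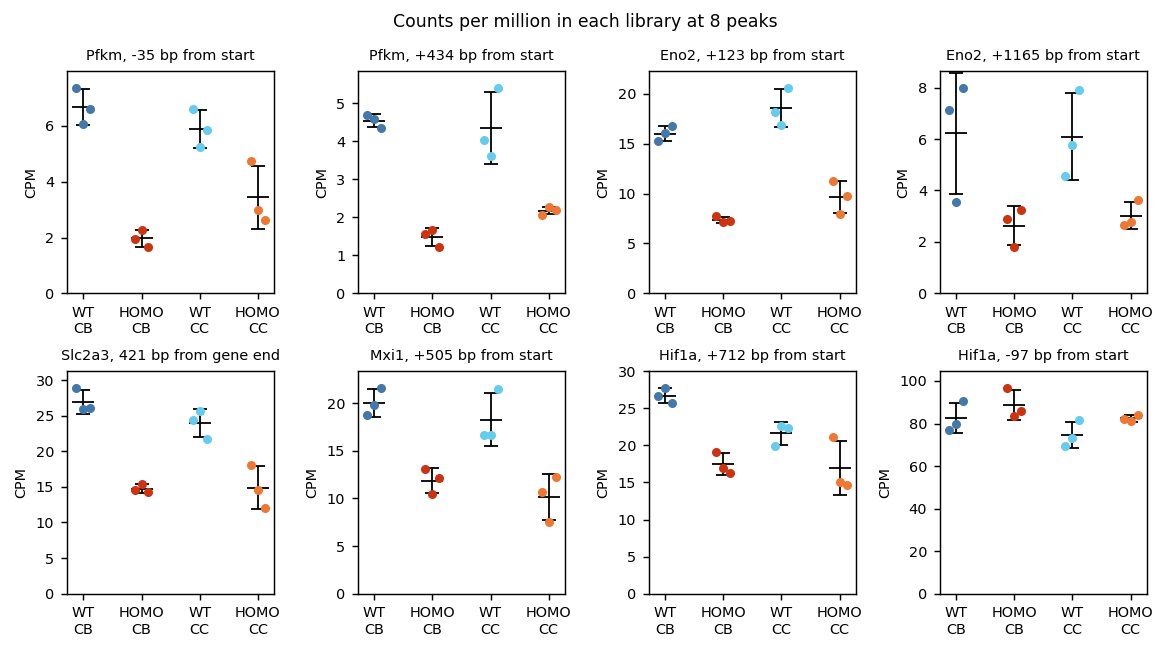
CPM in each library at 8 peaks, with each group's mean and SD (n = 3) as black bars and the y axis from 0. At the 7 peaks other than that at the Hif1a start, HOMO CB libraries lie below WT CB, while at the Hif1a start (last panel) the groups overlap.

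These calls depended on single libraries to different degrees. With each of the 12 libraries left out in turn, 4 of the 17 CB calls passed the threshold in every fit. They were the Slc2a3 peak 421 bp inside the end of the span, the start peak of Eno2 and the pair of inner Pfkm peaks, whose highest edgeR adjusted p values were 0.0234, 0.0154, 0.0111 and 0.0210. The count of CB calls fell to 5 without WT CB 1, 4 without HOMO CB 2 and 6 without HOMO CB 3, while the share of all peaks called fell to 1.01%, 0.496% and 1.17%. None of the 12 CC calls passed in every fit. When WT CC 1, 2 or 3 was left out, 3, 4 and 3 peaks were called, beside 0.480%, 0.875% and 1.48% of all peaks. Leaving out HOMO CC 3 gave 2, beside 0.319% of all peaks. Leaving out HOMO CC 2 gave 0, a fit in which 0.0248% of all peaks were called by edgeR. All called members were lower in each of these fits.

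Depth moved with genotype in part, since the HOMO libraries numbered 2 and 3 were among the deeper ones and both HOMO libraries numbered 1 the shallowest. Over the 22 called peaks, which were chosen for their difference, the median deviation from the peak's mean was -0.17 (CB 1) and -0.10 (CC 1) in the shallow HOMO libraries on the log2 scale. It was -0.39 to -0.47 in the deeper HOMO libraries. Without the shallow pair 27 peaks were called in CB and 23 in CC, all lower, and the share of all peaks called was 7.14% and 6.47%. With the log2 library total as a covariate 31 were lower and 3 higher in CB, and 27 lower and 1 higher in CC, while 11.8% and 8.42% of all peaks were called. The calls thus rose over the whole table in these fits.

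The effect of genotype was then compared between CB and CC. No member peak was called for the difference, beside 0 of 68689 peaks (0%). The smallest edgeR adjusted p was 1.0, DESeq2 called 0 as well, and an unadjusted p under 0.05 was found at 2 member peaks and 810 of all peaks. The 2 were the Pfkm peak 35 bp upstream of the inner start, with a difference of 0.90 ± 0.33 (effect in CC minus effect in CB), and the Slc2a1 peak 22699 bp downstream of the start, with 0.60 ± 0.27. The 95% interval of the Pfkm difference ran from 0.25 to 1.54 before any adjustment. For the Eno2 start peak it ran from -0.26 to 0.57.

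At Hif1a, Pgam1, Mxi1, Hk1 and Vhl the called peak lay downstream of a start whose own peak was not called. Peaks were therefore sorted by the distance of the midpoint from the nearest annotated start of the assigned gene. The classes were chosen after these values were seen. Of 31 member peaks within 200 bp of a start, 3 were called lower in CB and 2 in CC, and the median log2 fold change was -0.04 in CB and 0.04 in CC. Of 20 member peaks from 200 to 1000 bp downstream, 4 were called lower in each (20.0%), with medians of -0.31 and -0.33, and 19 of the 20 were negative in each. The pattern was not particular to these genes. Over all peaks the medians were -0.09 and -0.04 within 200 bp (7097 peaks, 6.93% and 3.40% lower) and -0.29 and -0.26 downstream (4126 peaks, 19.1% and 13.2% lower).

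Level differed between these places and moved with the effect. Member peaks at starts had a median average log2 CPM of 5.24, and those downstream 4.10. Among all peaks of average log2 CPM 3 to 4 the medians in CB were -0.29 at starts (725 peaks) and -0.43 downstream (1169 peaks). At log2 CPM 4 to 5 they were -0.14 (1863 peaks) and -0.24 (1369 peaks). The part of level in the members' difference was not tested beyond these bins.

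Within genes, log2 fold changes were averaged over the peaks of each kind at all annotated starts of a gene. On these means the contrast held at each of the 17 members with peaks of both kinds. The flank had a lower log2 fold change than the start at 17 of 17 in CB and in CC, with median differences of -0.25 and -0.37. Over all 2365 such genes the share was 82.5% in CB and 84.2% in CC, with -0.26 and -0.28. At Hif1a the values in CB were 0.10 at the start and -0.62 in the flank, and at Mxi1 -0.01 and -0.77. At Kdm3a they were 0.04 and -0.48, and at Hk1 -0.07 and -0.55. The gap was smallest at Pfkfb3, with -0.21 against -0.23, and at Gpi1, with -0.13 against -0.18. At single starts the order could turn round in CB. The Pfkm peak 35 bp upstream of an inner start had -1.77, and the adjoining downstream peak -1.64. The outer Pfkfb3 start peak had -0.49, and the peak 646 bp downstream of that start -0.44. In CC the downstream peak was the lower at both. Over all alternative fits the count of genes, on the means, was 14 to 17 in CB, with 14 in the fit without WT CB 1, and 16 to 17 in CC.

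**Figure D3:**
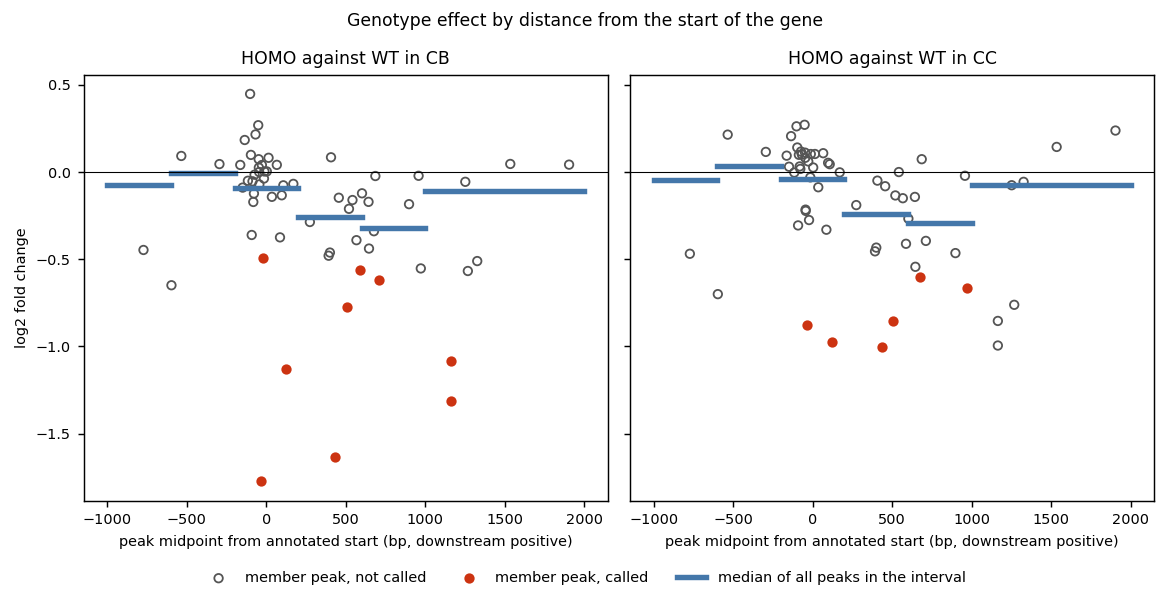
Log2 fold change of member peaks, HOMO against WT in CB (left) and CC (right). Distance is that of the peak midpoint from the nearest annotated start of its gene, positive downstream. Filled red points were called by edgeR, and blue bars are medians of all peaks in each distance interval, which are lowest from 600 to 1000 bp downstream (-0.32 in CB and -0.29 in CC).

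Start peaks were also split by the letters in the window. Those whose window held an ACGTG match had median log2 fold changes of -0.02 in CB and 0.10 in CC over 17 peaks, and those without had -0.05 and 0.03 over 14 peaks. This is a description of letters in 250 bases and says nothing of which factors were bound.

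The second axis of the design compares CC with CB within a genotype. In WT, without pairing, 6 member peaks were higher in CC and 3 lower, 5.52% of the members beside 5.43% of all peaks called, 3.35% higher and 2.08% lower. Of the gene-end peaks 1 of 42 was called, beside 1.39% of all gene-end peaks, and of the others 8 of 121, beside 6.67%. In HOMO 8 were higher and 3 lower, 6.75% of the members beside 7.22% of all peaks, 4.78% higher and 2.44% lower, with 1 gene-end call (1.97% of all gene-end peaks were called) and 10 others (8.82%). In both genotypes the members' share was close to that of all peaks. A set of 7 peaks was called in both genotypes with the same sign, 77.8% of the WT calls and 63.6% of the HOMO calls. Over all peaks 3.69% were called in both with the same sign, 68.0% of the WT calls and 51.2% of the HOMO calls. With the same-numbered CB and CC libraries taken as pairs (a replicate block), 36 were called in WT (12 higher, 24 lower; 22.1% of all peaks called) and 38 in HOMO (19 higher, 19 lower; 22.2%), among them all of the 9 and 11 called without pairing.

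Peaks higher in CC lay far from starts. The largest change was at a peak 37592 bp beyond Pdk1, the kinase that shuts off pyruvate dehydrogenase. It held 0.781, 1.14 and 1.06 CPM in WT CB against 2.79, 3.85 and 3.71 CPM in WT CC. In HOMO it held 0.655, 1.46 and 1.55 CPM in CB and 3.99, 4.06 and 4.57 CPM in CC. CC libraries lay above CB in both genotypes, with log2 fold changes of 1.83 ± 0.30 (edgeR adjusted p = 0.00129) and 1.64 (edgeR adjusted p = 0.000823). These are low levels, and the assignment to Pdk1 is by distance alone.

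A peak inside P4ha1, 46339 bp downstream of its start, rose from a mean of 1.31 CPM in WT CB to 3.96 CPM in WT CC (log2 fold change 1.56, edgeR adjusted p = 0.00295) and from 1.98 to 5.41 CPM in HOMO (1.39, edgeR adjusted p = 0.00196). At Pfkfb3 the peak 29488 bp beyond the gene gave 1.52 in WT (edgeR adjusted p = 0.00212) and 1.15 in HOMO (edgeR adjusted p = 0.00737). The Pfkfb3 peak 5364 bp downstream of a start gave 0.79 (edgeR adjusted p = 0.0322) and 0.81 (edgeR adjusted p = 0.0209). At Pfkfb4 a peak 29734 bp downstream rose from 6.29 to 11.8 CPM in WT (0.94, edgeR adjusted p = 0.0128) and from 4.27 to 8.54 CPM in HOMO (1.01, edgeR adjusted p = 0.00631). The called peaks were 2 of 19 at Pfkfb3 in WT and 3 in HOMO, and 1 of 4 at Pfkfb4 in each.

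Of the peaks lower in CC, the one at Slc2a1 was called in both genotypes, as was one at Ddit4. The Slc2a1 peak 3611 bp upstream held 18.0, 18.0 and 16.5 CPM in WT CB against 11.5, 11.9 and 12.4 CPM in WT CC, with a log2 fold change of -0.55 (edgeR adjusted p = 0.0257). In HOMO it went from 15.2, 12.1 and 13.0 CPM to 7.10, 7.37 and 8.51 CPM (-0.77, edgeR adjusted p = 0.00232), so that WT CB was the highest group and HOMO CC the lowest, while HOMO CB and WT CC overlapped. The Hif1a peak 3876 bp upstream of the main start gave -0.73 in WT (edgeR adjusted p = 0.0100) and -0.50 in HOMO (edgeR adjusted p = 0.0714). A Ddit4 gene-end peak gave -0.52 in both (edgeR adjusted p = 0.0464 and 0.0380). One further Hif1a peak, 19716 bp upstream, was higher in WT CC (1.04, edgeR adjusted p = 0.0343) and had 0.80 in HOMO (edgeR adjusted p = 0.100).

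In HOMO alone 4 peaks passed the threshold. They were the Slc2a1 peak 22699 bp downstream of the start (0.93, edgeR adjusted p = 0.00449; 0.33 in WT), a Pfkfb3 peak 21938 bp from a start (1.14, edgeR adjusted p = 0.00810; 0.78 in WT), the Ddit4 peak 16946 bp beyond the gene (0.69, edgeR adjusted p = 0.0363; 0.51 in WT) and the weak Pdk1 peak 21239 bp beyond the gene (-1.34, edgeR adjusted p = 0.0483; -0.51 in WT). No difference between the genotypes was called at any of them. At gene ends, CC was a little below CB in WT, with a median of -0.14 over 42 member peaks against -0.09 over all gene-end peaks.

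Left out in turn, single libraries moved these counts as well. In WT the count of 9 fell to 4 without WT CB 1 and to 5 without WT CB 2 or without WT CC 2, beside 1.89%, 2.99% and 2.28% of all peaks. In HOMO the count of 11 fell to 4 without HOMO CB 3 and to 5 without HOMO CC 2, beside 3.58% and 2.94%. In WT 4 of 9 calls passed in every such fit (the Pdk1 peak at 37592 bp, the P4ha1 peak, the Pfkfb3 peak at 29488 bp and the Hif1a peak at 3876 bp), and in HOMO 4 of 11 did.

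**Figure D4:**
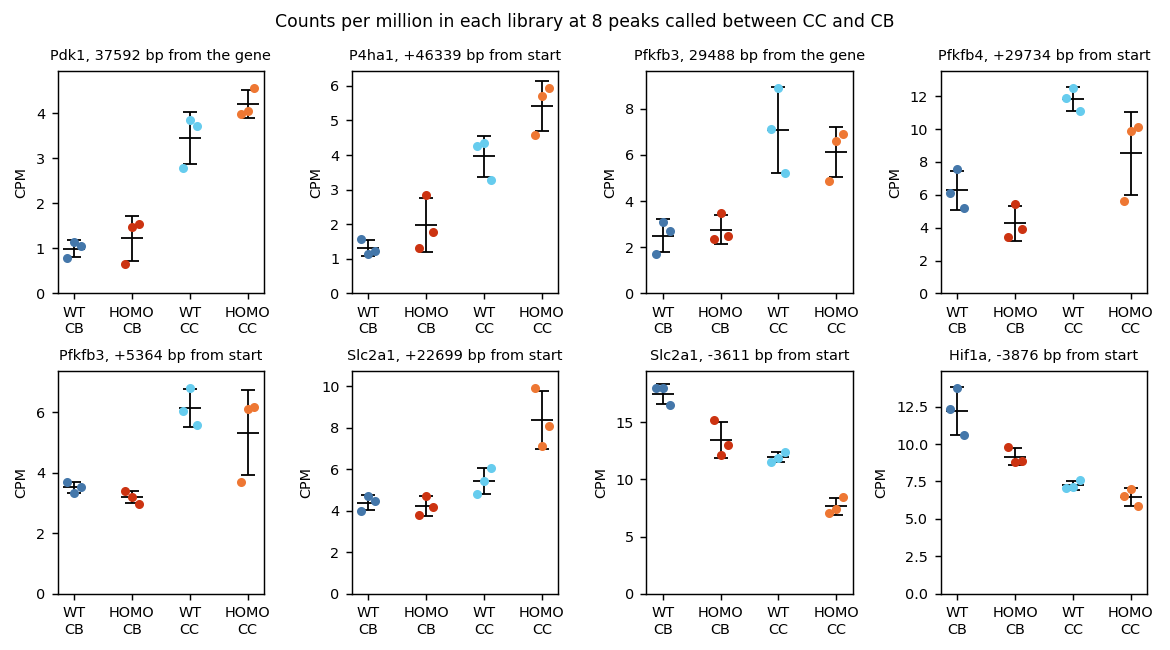
CPM in each library at 8 peaks called between CC and CB in WT, HOMO or both, with each group's mean and SD (n = 3) and the y axis from 0. The first 6 panels show peaks higher in CC in at least 1 genotype, and the last 2, at Slc2a1 and Hif1a, peaks lower in CC.

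Other genes of the pathways, from lists of further glycolysis and pyruvate genes, regulators of HIF and hypoxia-induced genes, had 426 peaks. Of these 17 were lower and 0 higher in HOMO CB (3.99%), and 11 lower and 1 higher in HOMO CC (2.82%), shares close to those of all peaks. Of 113 further glycolysis and pyruvate peaks 6 were lower in CB and 3 in CC. Of 111 peaks at HIF regulators 2 and 3 were lower, and of 202 at hypoxia-induced genes 9 and 5 were lower and 1 higher in CC.

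Car9, a carbonic anhydrase and one of the most oxygen-responsive genes known, had the largest decrease on these lists. Its peak inside the gene held 11.4, 11.4 and 10.0 CPM in WT CB against 5.63, 4.75 and 4.55 CPM in HOMO CB (log2 fold change -1.17 ± 0.17, edgeR adjusted p = 0.00112). In CC the groups were also apart, with means of 12.7 and 5.99 CPM (-1.12, edgeR adjusted p = 0.00530). Dld, a subunit of pyruvate dehydrogenase, had a peak 839 bp downstream of its start that fell from 8.66 to 3.91 CPM in CB (-1.12, edgeR adjusted p = 0.00314) and from 7.94 to 4.09 CPM in CC (-0.99, edgeR adjusted p = 0.0117). A peak 26594 bp upstream of Hilpda, a lipid droplet gene, was lower in CB (-0.64, edgeR adjusted p = 0.00702). At Ndrg1, a stress-induced gene, a peak was lower in CC (-0.46, edgeR adjusted p = 0.0122). The peak higher in HOMO CC was nearest to Zfp36l1, which encodes an RNA-binding protein, and lay 46715 bp from it (0.44, edgeR adjusted p = 0.0320).

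Between CC and CB the hypoxia-induced list had 10 peaks higher and 1 lower of 202 in WT (5.45%), and 21 higher and 1 lower in HOMO (10.9%), beside 5.43% and 7.22% of all peaks. A pair of neighbouring peaks assigned to Bhlhe40, a transcription factor gene also known as a light zone and activation gene, was among them. The first held 6.88, 6.30 and 8.66 CPM in WT CB against 13.5, 16.2 and 13.8 CPM in WT CC, with a log2 fold change of 0.97 (edgeR adjusted p = 0.00148) and 1.09 in HOMO (edgeR adjusted p = 0.000207). The other gave 1.03 and 1.10 (edgeR adjusted p = 0.00353 and 0.00107). A peak inside Kdm4c, a histone demethylase gene, was higher in WT CC (1.05, edgeR adjusted p = 0.00347) and had 0.57 in HOMO (edgeR adjusted p = 0.0697). A peak 7922 bp upstream of Hilpda was higher in CC in both genotypes, with 0.45 (edgeR adjusted p = 0.0268) and 0.77 (edgeR adjusted p = 0.000492). Bhlhe41, the paralog of Bhlhe40, had a peak that was lower in CC, with -0.60 in WT (edgeR adjusted p = 0.00948) and -0.46 in HOMO (edgeR adjusted p = 0.0356). Of 111 peaks at HIF regulators 1 was higher and 2 were lower in WT CC (2.7% called). In HOMO CC 4 were higher and 2 lower (5.4% called). Of the lower ones, a peak 37990 bp from Rbx1, a ring-finger subunit of the Vhl ligase, was lower in both genotypes (-0.48 and -0.34, edgeR adjusted p = 0.00458 and 0.0294). One near Epas1, which encodes Hif2a, was lower in WT CC (-0.42, edgeR adjusted p = 0.0288). One in Siah2, a ubiquitin ligase gene, was lower in HOMO CC (-0.50, edgeR adjusted p = 0.0130).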

How the data were processed

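Sorted splenic germinal center B cells were profiled by Omni-ATAC-seq in 3 libraries each of WT CB, HOMO CB, WT CC and HOMO CC. The data are the authors' deposited table of raw read counts in 68689 peaks of 501 bp (mm10). BWA, FastQC, deepTools and R 4.2.1 are listed, with no roles, per the submitters' processing notes. No source used here gives the peak caller, the counter, how duplicates and the Tn5 offset were handled, or whether libraries were pooled to call peaks, and these steps decide which sites have a count at all. Groups and replicate numbers come from the titles in the labels. The member genes, the further lists and the tests were chosen with earlier results of these data known.

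Peaks were assigned by midpoint to the nearest of 21627 protein-coding RefSeq gene spans within 50 kb, which placed 64043 peaks at 14263 genes. Starts and strands come from the RefSeq promoter table. Assignment by distance does not show which gene a site serves. Counts were scaled with TMM factors (0.954 to 1.05) and fitted over all 12 libraries with 1 mean per group in edgeR 4.0.16 (R 4.3.3), using robust quasi-likelihood dispersions and F tests, which are two-sided. No peak was lost to filterByExpr. A peak was called where its Benjamini-Hochberg adjusted p, over all peaks, was under 0.05. Log2 CPM used a prior count of 2, and intervals use the normal approximation. The common biological coefficient of variation was 0.142, and the median SE of a log2 fold change was 0.178 over member peaks in CB. Counts of any replicate pair differed by more than counting error, with a chi-square of 2.28 to 7.66 per degree of freedom. DESeq2 1.42.0, RLE factors, other filters, a depth covariate, left-out libraries and another assignment window were alternatives. The fit was tested on simulated data. Tables and figures were made with pandas 2.3.3, numpy 2.4.6 and matplotlib 3.10.9 in Python 3.11.15.

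Same-numbered CB and CC libraries of a genotype deviated together, with correlations of 0.21 to 0.52 over 6 pairs, and were treated as pairs in an alternative fit. Same-numbered libraries of different genotypes gave -0.011 to 0.40 over 12 pairs and were not. The text names the highest gene-end peak of each gene, up to 12 called peaks a direction for genotype, up to 10 for CC against CB, and up to 3 per contrast from the further lists. Other peaks it names at these genes, and the classes by distance from the start, were chosen after their values were seen.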

Additional observations from a re-analysis of the deposited data

How the results depend on the processing

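With RLE size factors and with peaks of average log2 CPM of at least 1 the counts of called member peaks stayed within 1.5 times of those reported. The fit without a filter is the main fit again, since filterByExpr removed no peak, and it tests nothing. The percentages beside the counts that follow are the shares of all peaks called in the same fits. The count of 17 in CB became 34 with the depth covariate (11.8%). It became 11 without both WT libraries numbered 2 (2.42%) and 27 without both HOMO libraries numbered 1 (7.14%). With single libraries left out it ran from 4 to 22 (0.496% to 5.98%). The count of 12 in CC became 28 (8.42%), 2 (0.473%) and 23 (6.47%) in the same fits, and 19 with DESeq2 (4.545%). With single libraries left out it ran from 0 to 18 (0.0248% to 4.97%). For CC against CB the WT count of 9 became 16 with the depth covariate (11.4%) and 2 without both WT libraries numbered 2 (0.767%). With single libraries left out it ran from 4 to 10 (1.89% to 6.46%). The HOMO count of 11 became 21 with the depth covariate (13.1%) and 7 within 10 kb of the gene. With single libraries left out it ran from 4 to 11 (2.94% to 8.05%). With the replicate number as a block, CC against CB gave 36 in WT (22.1%) and 38 in HOMO (22.2%). The labels do not pair the genotypes, and with the same block the genotype counts were 39 in CB (33 lower, 6 higher; 13.2% of all peaks called) and 28 in CC (27 lower, 1 higher; 10.4%).

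In the main fit the medians over member peaks were -0.0629 in CB, -0.0305 in CC and 0.0504 for the difference of effects. For CC against CB they were -0.0705 in WT and -0.0216 in HOMO. In some alternatives the genotype median in CC and the CC against CB median in HOMO crossed 0. In CB the median was -0.0941 within 10 kb. In CC it was 0.00641 without both HOMO libraries numbered 1, and ran from -0.0487 to 0.00595 with single libraries left out. For the difference of effects it was 0.0123 at log2 CPM of at least 1. For CC against CB it ran from -0.0900 to -0.0340 in WT with single libraries left out, and was 0.0131 in HOMO without both HOMO libraries numbered 1. For single named peaks 209 alternative values lost the call, 79 gained one and 0 changed sign while called. The cause of these changes was not tested. The shallowest library, HOMO CC 1, has 6431354 reads in peaks.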

Other observations

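Within 1 Mb of the genes there were 2954 peaks that are no members. Of these 152 (5.15%) were lower in CB and 67 (2.27%) in CC, beside 3.85% and 2.17% of all peaks. Near Slc2a3 8 of 59 were lower in CB (13.6%) and 2 in CC (3.39%). Near Pfkm 10 of 190 (5.26%) and near Eno2 7 of 125 (5.6%) were lower in CB. Near Hif1a 0 of 28 and near Mxi1 1 of 92 (1.09%) were lower in CB.

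At genes with an annotated start, 98 member peaks lay more than 1 kb from every annotated start of their own gene. Of these 6 were lower in CB (6.12%), beside 1.82% of all such peaks. Starts of neighbouring genes were not considered. In CC 2 of 98 were lower (2.04%), beside 0.866%. The 6 are at Slc2a1, Eno2, Egln1, Ddit4 and Mxi1.

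A peak at Xist, the RNA that silences an X chromosome, held 0.458 CPM in WT CB 2 and 0.782 CPM in WT CC 2, and 4.74 to 17.2 CPM in the other 10 libraries. Another Xist peak held 3.89 CPM in WT CB 2 and 5.06 CPM in WT CC 2, and 4.88 to 9.39 CPM in the other 10, so that it did not set WT CC 2 apart. The labels do not give the sex of the mice. No member peak lies on the X chromosome.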
